A study of Sus scrofa with 3 samples.

Results

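The SLC25 genes encode the mitochondrial carrier family, and 32 of the 25322 gene IDs in the count tables carry a pig symbol that starts with SLC25. Their RNA was counted in the livers of 3 male pigs aged 90 days, each animal of another breed and sequenced as 1 library. The animals are an Enshi black pig, a Chinese local breed, a Chinese wild boar, and a Large White pig, a European commercial breed. All 3 animals share sex, age and tissue, and no treatment or genetic modification is labelled. Because each breed is represented by 1 library, breed, animal and library cannot be told apart. None of the differences below could be checked against replicates, and no p-value is given.

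Mitochondrial carriers are small proteins of the inner mitochondrial membrane that exchange metabolites, nucleotides, inorganic ions and cofactors between the cytosol and the mitochondrial matrix. In the liver they connect the cytosolic and mitochondrial steps of the urea cycle, fatty acid oxidation, lipid synthesis, gluconeogenesis and ATP supply. They are encoded in the nucleus and built on the same triplicated fold, and most are inserted into the inner membrane by the TIM22 import machinery.

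Levels are given as CPM (each gene's counts relative to its library's total) after scaling with TMM factors (a trimmed mean that sets most genes equal between libraries). No transcript lengths were used, so CPM values of one gene are compared between libraries, and levels of different genes are not ranked as expression. The range in parentheses after a fold is its 95% exact interval, and it allows for counting error alone. The size rule asks that the whole interval lie at or beyond 2-fold, above or below 1. Of the 32 members, 29 were expressed, meaning at least 1 CPM in at least 1 library, against 13228 of all gene IDs.

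The libraries held 20654571 gene counts for Enshi black, 20215871 for Chinese wild boar and 19982627 for Large White. Hepatocyte markers summed to 71977, 61235 and 33068 CPM in the same order, over 5 of 6 markers with a counted ID. Albumin (ALB) carried that sum, and 3 of the 5 markers were lower in Enshi black than in Large White, with a median log2 fold of -0.43. The 1 skeletal muscle marker with a counted ID, ACTA1, was at or near 0 in all 3 libraries. Summed markers of other cell types also differed between the libraries, though not every list moved as 1 group. Kupffer cell and macrophage markers (3 of 5 counted) summed to 90.9 CPM in Enshi black, 155 in Chinese wild boar and 257 in Large White. Stellate cell and fibroblast markers (4 of 5) summed to 978, 483 and 272 CPM, and T cell markers (3 of 4) to 58.6, 16.0 and 54.8. Endothelial markers (2 of 4) summed to 297, 276 and 595 CPM, carried by STAB1 (186, 168 and 499), while PECAM1 had 111, 108 and 95.6. Erythroid markers (3 of 4) summed to 44.9, 186 and 106 CPM, carried by HBB (36.5, 182 and 102), while ALAS2 had 7.74, 3.44 and 2.92. Cholangiocyte markers (2 of 4) lay between 5.31 and 5.84 CPM. The part of cell makeup in any carrier difference was not tested, and in bulk tissue fewer cells of a type and less RNA per cell cannot be told apart. The Enshi black library also lacked some genes: 47 IDs with at least 5 CPM in the other 2 livers reached no more than 3 counts there. The Chinese wild boar and Large White libraries each had 1 such ID, and 0 of these IDs were SLC25 members.

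The 32 counted members together took more reads in the Chinese wild boar liver than in either other liver. These sums leave out 10 IDs with an SLC25 symbol that are not among the counted IDs. The 32 members summed to 1828 CPM in Enshi black, 2340 in Chinese wild boar and 1752 in Large White. The Chinese wild boar sum was 1.34-fold that of Large White (1.32 to 1.35), and the Enshi black sum was 1.04-fold that of Large White (1.03 to 1.06). Of the Chinese wild boar excess of 588 CPM over Large White, SLC25A47 contributed 236 CPM and the citrate carrier SLC25A1 178 CPM. Between Enshi black and Large White the sums hid opposing differences, with 410 CPM of gains and -334 CPM of losses over single members. The largest single gain there was the phosphate carrier SLC25A3, at 171 CPM, and the largest loss the glutamate carrier SLC25A22, at -142 CPM. The 5 members with the most reads took 58.8% of the reads of the 32 members in Enshi black, 62.6% in Chinese wild boar and 58.6% in Large White. SLC25A47, SLC25A4 and SLC25A22 were among those 5 in every library.

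**Figure D1:**
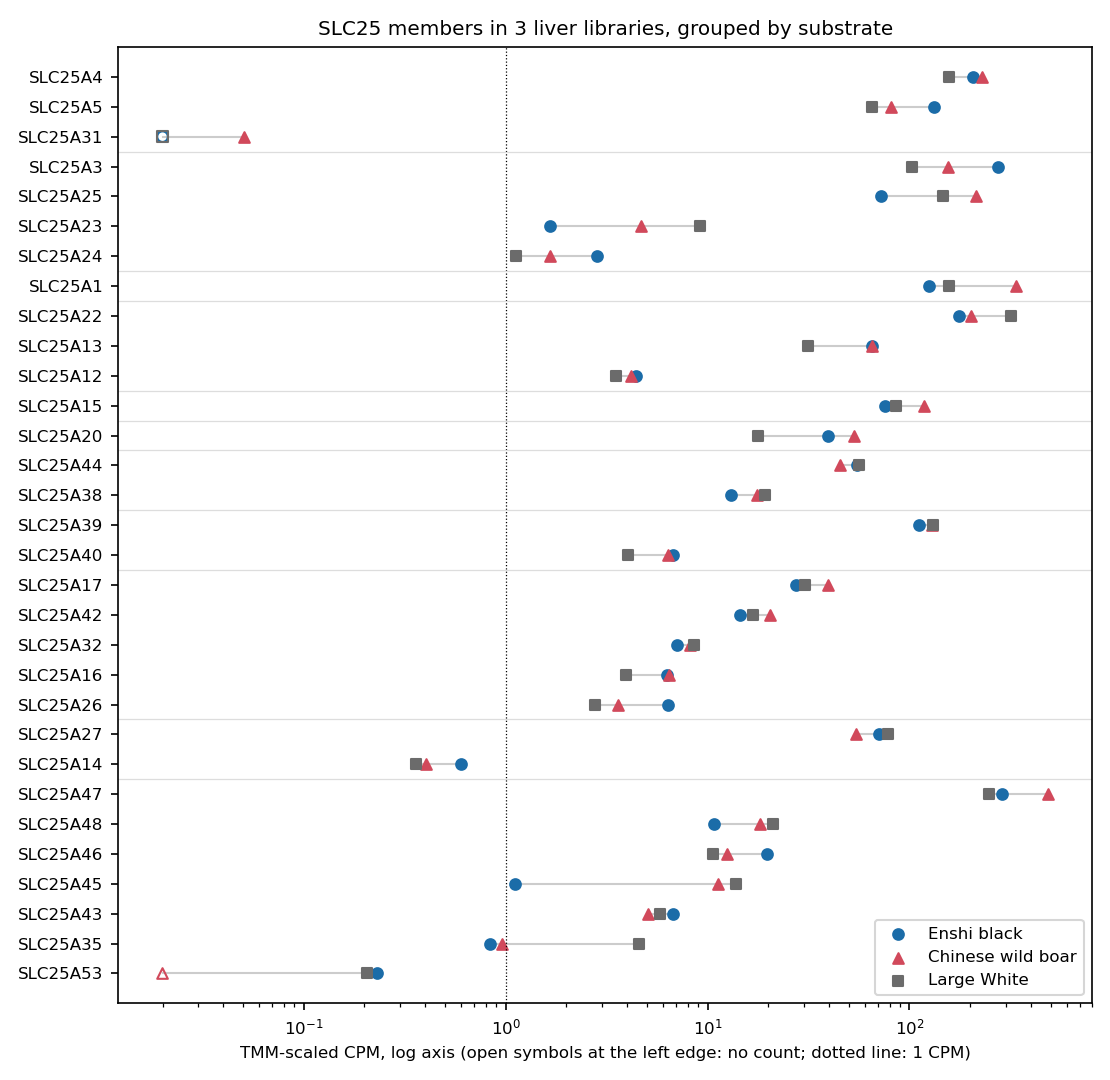
TMM-scaled CPM (log axis) of 31 members in the Enshi black, Chinese wild boar and Large White libraries, with members grouped by substrate and separated by thin lines. Each symbol is 1 library and a grey line spans the 3 values. SLC25A45 in Enshi black (1.11 CPM) lies far from the other 2 libraries, while SLC25A39 (111 to 130 CPM) and SLC25A44 (45.2 to 55.9 CPM) stay close together.

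In Enshi black against Large White, 2 expressed members passed the size rule as higher and 3 as lower. That is 17.2% of the 29, beside 13.1% of all 13228 expressed genes, of which 4.69% were higher and 8.39% lower. SLC25A3 was among the higher members. The lower ones were SLC25A23, SLC25A35 and SLC25A45, of which SLC25A35 reached 1 CPM in Large White alone. The median log2 fold of the expressed members was -0.03, and that of all expressed genes was 0.01. Above 0 lay 14 members and below it 15, beside 6694 and 6531 of all expressed genes. With plain CPM in place of TMM scaling, 5 members passed as higher and 3 as lower, since SLC25A5, SLC25A13 and SLC25A20 then also passed.

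In Chinese wild boar against Large White, the rule was passed by 3 higher members and 1 lower member. They make up 13.8% of the 29, beside 6.7% of all expressed genes, with 2.96% higher and 3.74% lower. SLC25A1 and the carnitine and acylcarnitine carrier SLC25A20 were among the higher members. The lower one was SLC25A35, which reached 1 CPM in Large White alone. The median log2 fold of the expressed members was 0.32 against 0.0011 for all expressed genes. Above 0 lay 18 members and below it 11, beside 6623 and 6593 of all expressed genes.

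In Enshi black against Chinese wild boar, the rule was passed by 0 higher and 3 lower members. They make up 10.3% of the 29, beside 11.1% of all expressed genes, with 4.03% higher and 7.1% lower. The lower members were SLC25A1, SLC25A25 and SLC25A45. The median log2 fold of the members was -0.20, against 0.01 for all expressed genes. Above 0 lay 11 members and below it 18, beside 6672 and 6553 of all expressed genes. The 3 comparisons share libraries pairwise and are not independent of each other.

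**Figure D2:**
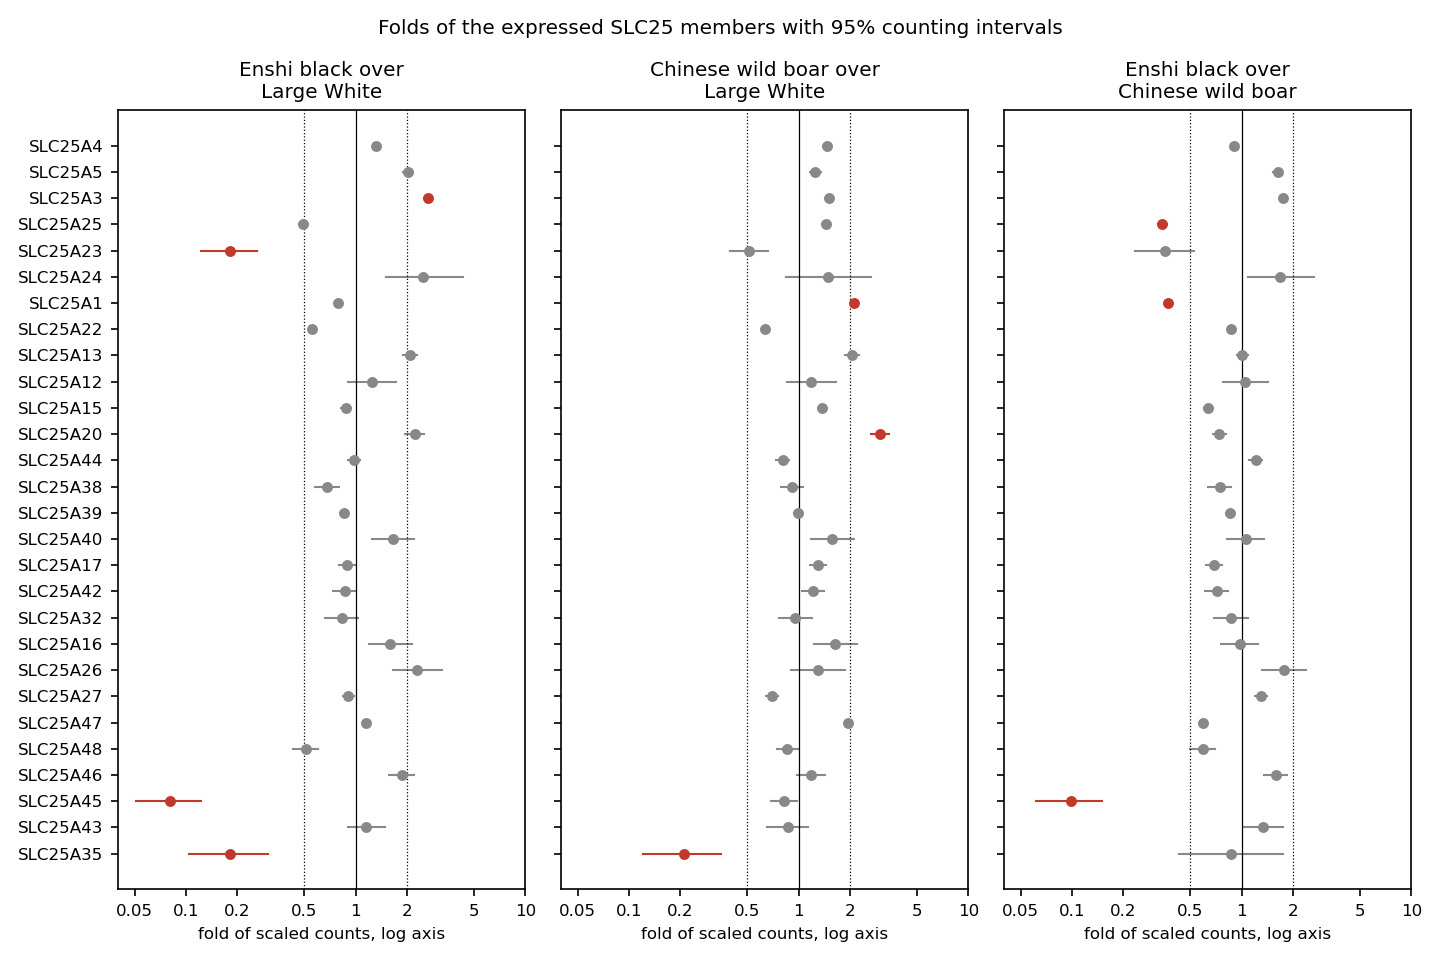
Fold of scaled counts (log axis) of 28 expressed members in 3 panels, Enshi black over Large White, Chinese wild boar over Large White, and Enshi black over Chinese wild boar. Points are folds, bars 95% counting intervals and dotted lines the 2-fold limits, with members past the size rule in red. SLC25A45 lies farthest from 1 in the panels with Enshi black on top, and SLC25A35, lower in Chinese wild boar, in the middle panel.

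The ADP/ATP carriers, also called adenine nucleotide translocases, exchange matrix ATP for cytosolic ADP. SLC25A4, known as the form of heart and muscle, had 207 CPM in Enshi black, 230 in Chinese wild boar and 157 in Large White. SLC25A5, a form linked to dividing cells, had 133, 81.3 and 65.0 CPM in the same order. Neither gene passed, and Enshi black SLC25A5 lay just outside the rule at 2.04-fold that of Large White (1.91 to 2.18). SLC25A31, the form known from testis, had 1 read in Chinese wild boar and none in the other 2 libraries, where a count of 0 allows up to 0.139 CPM in Enshi black and 0.154 CPM in Large White. Genes of this group have near-identical copies, so the split of reads among them is uncertain. SLC25A6, a further ADP/ATP carrier, was not analysed here.

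The balance of this pair's assigned reads differed between the libraries, and a share of reads within a library does not depend on scaling. SLC25A5 made up 39.0% of the reads of SLC25A5 and SLC25A4 together in Enshi black (95% exact binomial interval 37.9 to 40.2). The share was 26.1% in Chinese wild boar (25.04 to 27.2) and 29.3% in Large White (27.9 to 30.7). The 3 intervals do not overlap, but they cover counting error alone, and the pair was picked after values were seen. These shares depend on the lengths of both genes and are compared between libraries only.

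The phosphate carrier and the ATP-Mg/phosphate carriers bring phosphate into the matrix or adjust its adenine nucleotide pool. SLC25A3, which supplies the phosphate for ATP synthesis, had 273 CPM in Enshi black, 155 in Chinese wild boar and 102 in Large White. Enshi black was highest, 2.67-fold above Large White (2.54 to 2.81) and 1.76-fold above Chinese wild boar (1.69 to 1.84), and only the first of these folds passed.

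SLC25A25, a calcium-regulated ATP-Mg/phosphate carrier, was instead lowest in Enshi black, with 72.6 CPM there, 212 in Chinese wild boar and 147 in Large White. It was 2.93-fold lower in Enshi black than in Chinese wild boar (2.76 to 3.11), which passed, and 2.03-fold lower than in Large White (1.91 to 2.16), just short of the rule. SLC25A23, a second carrier of this type, had 1.67, 4.70 and 9.16 CPM in the same order, from 36, 93 and 179 reads. It was 5.49-fold lower in Enshi black than in Large White (3.82 to 8.09). SLC25A24, the last of the trio, had 2.83, 1.67 and 1.13 CPM, highest in Enshi black, and passed in no comparison.

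Within this trio the read shares of SLC25A23 and SLC25A24 were raised in different libraries. SLC25A23 made up 2.25% of the reads of SLC25A23 and SLC25A25 in Enshi black (1.58 to 3.10) and 2.16% in Chinese wild boar (1.75 to 2.64), against 5.86% in Large White (5.05 to 6.75). SLC25A24 made up 3.75% of the reads of SLC25A24 and SLC25A25 in Enshi black (2.88 to 4.79), 0.779% in Chinese wild boar (0.537 to 1.09) and 0.759% in Large White (0.477 to 1.15). Large White therefore stood apart in the first share and Enshi black in the second, beyond counting error. Both shares are set against SLC25A25, itself lowest in Enshi black, and the pairs were picked after values were seen.

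**Figure D3:**
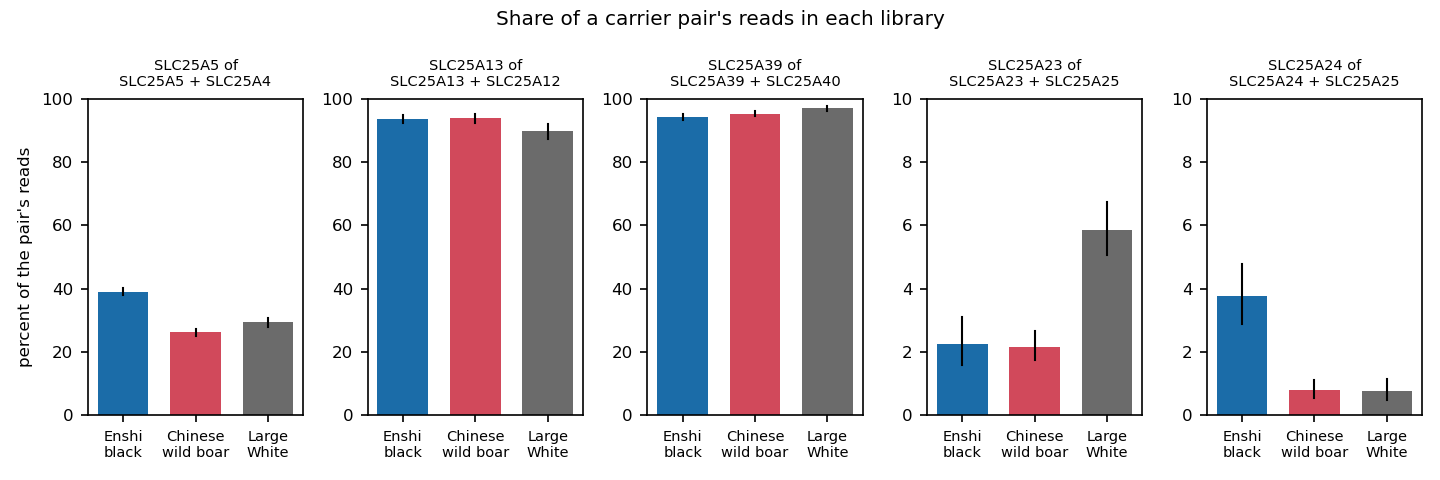
Share of a carrier pair's reads (percent) taken by the first gene named in each panel title, in the Enshi black, Chinese wild boar and Large White libraries. Bars are shares and black lines 95% exact binomial intervals, and the last 2 panels have a shorter axis. SLC25A5 takes 39.0% of its pair's reads in Enshi black, against 26.1% in Chinese wild boar and 29.3% in Large White.

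The citrate carrier SLC25A1 exports citrate, from which cytosolic acetyl-CoA for fatty acid and sterol synthesis is made. It had 125 CPM in Enshi black, 336 in Chinese wild boar and 157 in Large White. The Chinese wild boar library was the high one, 2.13-fold above Large White (2.04 to 2.23), just inside the rule, and Enshi black was 2.69-fold lower than Chinese wild boar (2.58 to 2.82). The other members of this substrate group that have a symbol, SLC25A10, SLC25A11 and SLC25A21, were not analysed here.

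ACLY and FASN, which act after citrate export, did not follow the carrier's order of libraries. ACLY, which cleaves citrate, had 97.7 CPM in Enshi black, 56.7 in Chinese wild boar and 34.1 in Large White, and FASN, the fatty acid synthase, had 1423, 504 and 858 CPM. Of 7 expressed genes of the citrate export and lipogenic list, 2 passed as higher and 0 as lower in Enshi black against Large White, with a median log2 fold of 0.86, and ACLY (2.87-fold, 2.63 to 3.13) and the cytosolic aconitase ACO1 (2.12-fold, 2.03 to 2.22) were the ones that passed. None of the 7 passed in Chinese wild boar against Large White (median 0.34), where 6 lay above 0, as SLC25A1 did, and 1 below. FASN was the 1 that passed in Enshi black against Chinese wild boar, 2.82-fold higher (2.76 to 2.89; list median 0.61).

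The aspartate/glutamate carriers feed the malate-aspartate shuttle and, in liver, supply aspartate to the urea cycle. SLC25A13, called citrin and known as the liver form, had 65.4 CPM in Enshi black, 64.9 in Chinese wild boar and 31.4 in Large White. Both folds over Large White were close to 2, at 2.08 (1.89 to 2.29) for Enshi black and 2.07 (1.87 to 2.28) for Chinese wild boar, and neither passed. Enshi black and Chinese wild boar did not differ beyond counting error, with a ratio of 1.01 (0.934 to 1.09).

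SLC25A12, called aralar and known from brain and muscle, had 4.40, 4.19 and 3.53 CPM in these libraries. Each of its 3 fold intervals included 1. Citrin took 93.7% of the reads of both genes in Enshi black (92.3 to 94.9), 93.9% in Chinese wild boar (92.5 to 95.1) and 89.9% in Large White (87.4 to 92.1). SLC25A22, which carries glutamate with a proton, had 176, 202 and 318 CPM and was highest in Large White. It was 1.80-fold lower in Enshi black (1.73 to 1.88) and 1.57-fold lower in Chinese wild boar (1.51 to 1.64) than in Large White, and passed in neither comparison.

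Among the enzymes that work with citrin, MDH2, the mitochondrial malate dehydrogenase, had 190 CPM in Enshi black, 573 in Chinese wild boar and 406 in Large White. It was 2.14-fold lower in Enshi black than in Large White (2.06 to 2.22) and 3.02-fold lower than in Chinese wild boar (2.91 to 3.13). It was the 1 of 3 expressed malate-aspartate shuttle enzymes that passed in each of those comparisons (list medians 0.41 and -0.04). None of the 3 passed in Chinese wild boar against Large White (median 0.45). The cytosolic transaminase GOT1 had 159, 164 and 120 CPM and passed in no comparison.

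SLC25A15 exchanges cytosolic ornithine for matrix citrulline, which links the mitochondrial and cytosolic steps of the urea cycle. It had 75.3 CPM in Enshi black, 118 in Chinese wild boar and 85.6 in Large White, highest in Chinese wild boar, and passed in no comparison. Its fold was 1.38 in Chinese wild boar over Large White (1.30 to 1.47), and it was 1.57-fold lower in Enshi black than in Chinese wild boar (1.47 to 1.67). Of 7 urea cycle enzymes, only ASL, the argininosuccinate lyase, passed in Enshi black against Large White, where it was 2.27-fold lower (2.18 to 2.36; list median -0.46). None passed in the other 2 comparisons (medians -0.14 between Chinese wild boar and Large White, and -0.29 between Enshi black and Chinese wild boar). The abundant urea cycle genes CPS1 and ASS1 each differed by at most 1.35-fold between any 2 libraries.

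SLC25A20 carries acylcarnitines into the matrix in exchange for carnitine, the step between the carnitine transferases CPT1A and CPT2 on the way to fatty acid oxidation. It had 39.5 CPM in Enshi black, 53.4 in Chinese wild boar and 17.7 in Large White, from 852, 1056 and 346 reads. Large White was the low library. Chinese wild boar passed at 3.01-fold Large White (2.67 to 3.41), and Enshi black at 2.23-fold (1.97 to 2.53) lay just outside the rule.

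The transferases on either side gave the same order of libraries. CPT1A, of the outer membrane, had 208 CPM in Enshi black, 372 in Chinese wild boar and 108 in Large White, and CPT2, of the inner membrane, 143, 228 and 67.4. Of 5 expressed carnitine shuttle enzymes, 3 passed as higher in Chinese wild boar against Large White (median log2 fold 1.20). They were CPT1A (3.44-fold, 3.28 to 3.62), CPT2 (3.38-fold, 3.17 to 3.59) and the peroxisomal transferase CROT (2.29-fold, 2.19 to 2.41). In Enshi black against Large White none of the 5 passed (median -0.50). In Enshi black against Chinese wild boar, CROT (3.26-fold, 3.09 to 3.43) and the acetyltransferase CRAT (2.64-fold, 2.55 to 2.73) passed as lower (median -0.84).

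Carriers of cofactors and vitamins supply the matrix or the peroxisome with coenzymes, and the 5 given here passed in no comparison. SLC25A17, a peroxisomal carrier of CoA and nucleotide cofactors, had 27.3 CPM in Enshi black, 39.5 in Chinese wild boar and 30.5 in Large White. SLC25A42, which carries CoA, had 14.5, 20.4 and 16.8 CPM, and SLC25A32, linked to folate and FAD, 7.09, 8.19 and 8.55. SLC25A26, which imports S-adenosylmethionine for methylation in the matrix, had 6.35, 3.59 and 2.76 CPM with Enshi black 2.30-fold above Large White (1.66 to 3.21). SLC25A16 had 6.30, 6.47 and 3.94 CPM. RefSeq places LRIG1 over part of SLC25A26 and DCAF13 over part of SLC25A32, so the reads of both carriers are uncertain.

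The carriers of glutathione, the main thiol antioxidant of the matrix, passed in no comparison. SLC25A39 had 111 CPM in Enshi black, 130 in Chinese wild boar and 130 in Large White, and Chinese wild boar and Large White did not differ beyond counting error (0.996-fold, 0.942 to 1.05). Its paralog SLC25A40 had 6.72, 6.37 and 4.04 CPM, lowest in Large White. Its folds over Large White were 1.66 in Enshi black (1.25 to 2.21) and 1.58 in Chinese wild boar (1.18 to 2.11), both beyond counting error. SLC25A39 took 94.3% of the pair's reads in Enshi black (93.3 to 95.2), 95.3% in Chinese wild boar (94.5 to 96.1) and 97.0% in Large White (96.3 to 97.6).

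The carriers tied to amino acids and haem also stayed inside the rule. SLC25A44, a carrier of branched-chain amino acids known from brown fat of mice, had 54.8 CPM in Enshi black, 45.2 in Chinese wild boar and 55.9 in Large White. SLC25A38, which supplies glycine for the first step of haem synthesis, had 13.1, 17.6 and 19.3 CPM. That step is made by ALAS1 in liver, which had 978, 549 and 495 CPM and so did not share the order of SLC25A38. Of 10 expressed haem and iron-sulphur genes, 0 passed as higher in any comparison. GLRX5, a glutaredoxin of iron-sulphur cluster assembly, passed as lower in Enshi black against Large White (2.69-fold, 2.51 to 2.87; list median 0.06). GLRX5 (3.64-fold, 3.42 to 3.88) and the haem synthesis enzyme UROS (2.31-fold, 2.08 to 2.57) passed as lower in Enshi black against Chinese wild boar (median -0.44). None of the 10 passed in Chinese wild boar against Large White (median 0.33). The mitoferrin SLC25A28, which brings iron to this pathway, was not analysed here.

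SLC25A27 and SLC25A14 resemble the uncoupling proteins. SLC25A27, known from brain, had 70.7 CPM in Enshi black, 54.3 in Chinese wild boar and 78.0 in Large White and passed in no comparison. SLC25A14 had 13, 8 and 7 reads and was below the expression limit. Among carrier-fold genes with other names, UCP2 had 14.9, 8.24 and 25.5 CPM and was 3.10-fold lower in Chinese wild boar than in Large White (2.59 to 3.72), the 1 of 2 expressed genes of that list to pass in that comparison (median log2 fold -0.53). Neither passed in Enshi black against Large White (median -0.19) or Chinese wild boar (median 0.33). MTCH1, a protein of the outer membrane, had 193, 218 and 148 CPM.

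The members of less settled role held the most extreme fold among the expressed members. SLC25A45 had 1.11 CPM in Enshi black, 11.3 in Chinese wild boar and 13.8 in Large White, from 24, 224 and 269 reads. Enshi black was the low library, 12.4-fold below Large White (8.14 to 19.7) and 10.18-fold below Chinese wild boar (6.67 to 16.2). It was also the only SLC25 member that passed, in either comparison, when a coefficient of variation of 0.4 between animals was assumed. In Enshi black against Large White that is 1 of 29 members, beside 525 of 13228 expressed genes, which is a like share. SLC25A35 had 0.834, 0.960 and 4.55 CPM, from 18, 19 and 89 reads, with Large White the high library. It reached the expression limit of 1 CPM in Large White alone, so its lower calls are not independent of that filter. It was 5.46-fold lower in Enshi black (3.26 to 9.63) and 4.74-fold lower in Chinese wild boar (2.87 to 8.25). RefSeq places 2 genes over its span, RANGRF and ARHGEF15, so its reads are uncertain while the strand setting is not given in the sources used here. Overlapping RefSeq genes also leave some reads of SLC25A1, SLC25A12, SLC25A15, SLC25A40, SLC25A42, SLC25A43 and SLC25A53 uncertain.

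SLC25A47, a carrier found mainly in hepatocytes whose substrate is debated, had 286 CPM in Enshi black, 484 in Chinese wild boar and 248 in Large White. Chinese wild boar was the high library, at 1.95-fold Large White (1.88 to 2.02), which did not pass, and Enshi black was 1.69-fold lower than Chinese wild boar (1.64 to 1.75). SLC25A48, linked to choline import, had 10.7, 18.1 and 21.1 CPM, and was 1.97-fold lower in Enshi black than in Large White (1.67 to 2.32). SLC25A46, an outer membrane protein of mitochondrial shape, had 19.8, 12.5 and 10.6 CPM, highest in Enshi black, and SLC25A43 6.77, 5.05 and 5.83. SLC25A53 had 5 reads in Enshi black, none in Chinese wild boar and 4 in Large White, below the expression limit.

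Among the machinery that inserts carriers into the membrane, none of 7 expressed genes of the TIM22 and small TIM list passed in any comparison, with medians of 0.06 in Enshi black against Large White, 0.13 in Chinese wild boar against Large White and -0.07 in Enshi black against Chinese wild boar. TIMM13, an intermembrane space chaperone, had 72.7 CPM in Enshi black, 76.4 in Chinese wild boar and 69.6 in Large White, and TOMM70, the receptor for carrier precursors, 24.0, 23.6 and 22.6. Single genes of the list differed more: the small TIM gene TIMM8A had 27.2, 19.0 and 12.0 CPM, with Enshi black at 2.26-fold Large White (1.94 to 2.64).

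Other routes across the mitochondrial membranes were mixed. Of 2 expressed outer membrane channels, VDAC3 passed as higher in Enshi black against Large White (4.31-fold, 2.54 to 7.77, at 3.75 and 0.870 CPM; list median 1.32), and neither passed in the other comparisons (medians 1.05 between Chinese wild boar and Large White, and 0.26 between Enshi black and Chinese wild boar). VDAC1 had 155 CPM in Enshi black, 144 in Chinese wild boar and 99.2 in Large White. Of 8 expressed genes of the list of other inner membrane carriers, which also holds the outer membrane protein TSPO, the sideroflexin SFXN5 passed as lower in Enshi black, by 2.81-fold against Large White (2.31 to 3.44) and by 3.30-fold against Chinese wild boar (2.73 to 4.02). Against Chinese wild boar, SFXN2 also passed as lower, at 2 reads in Enshi black and 22 in Chinese wild boar, and TSPO as higher (3.70-fold, 2.75 to 5.05). TSPO was the 1 gene of the list that passed in Chinese wild boar against Large White, where it was 4.45-fold lower (3.32 to 6.06). The list medians were -0.20 in Enshi black against Large White, 0.30 in Chinese wild boar against Large White and -0.47 in Enshi black against Chinese wild boar.

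Of 5 expressed genes of mitochondrial mass and biogenesis, the coactivator PPARGC1B passed as lower in Enshi black against Large White (4.08-fold, 2.85 to 5.97) and in Chinese wild boar against Large White (3.04-fold, 2.18 to 4.30), at 1.81, 2.43 and 7.37 CPM in Enshi black, Chinese wild boar and Large White. The list medians were 0.05 and 0.17, and in Enshi black against Chinese wild boar, where none passed, 0.27. TOMM20, a general import receptor, had 62.7, 37.4 and 32.4 CPM and passed in no comparison.

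**Figure D4:**
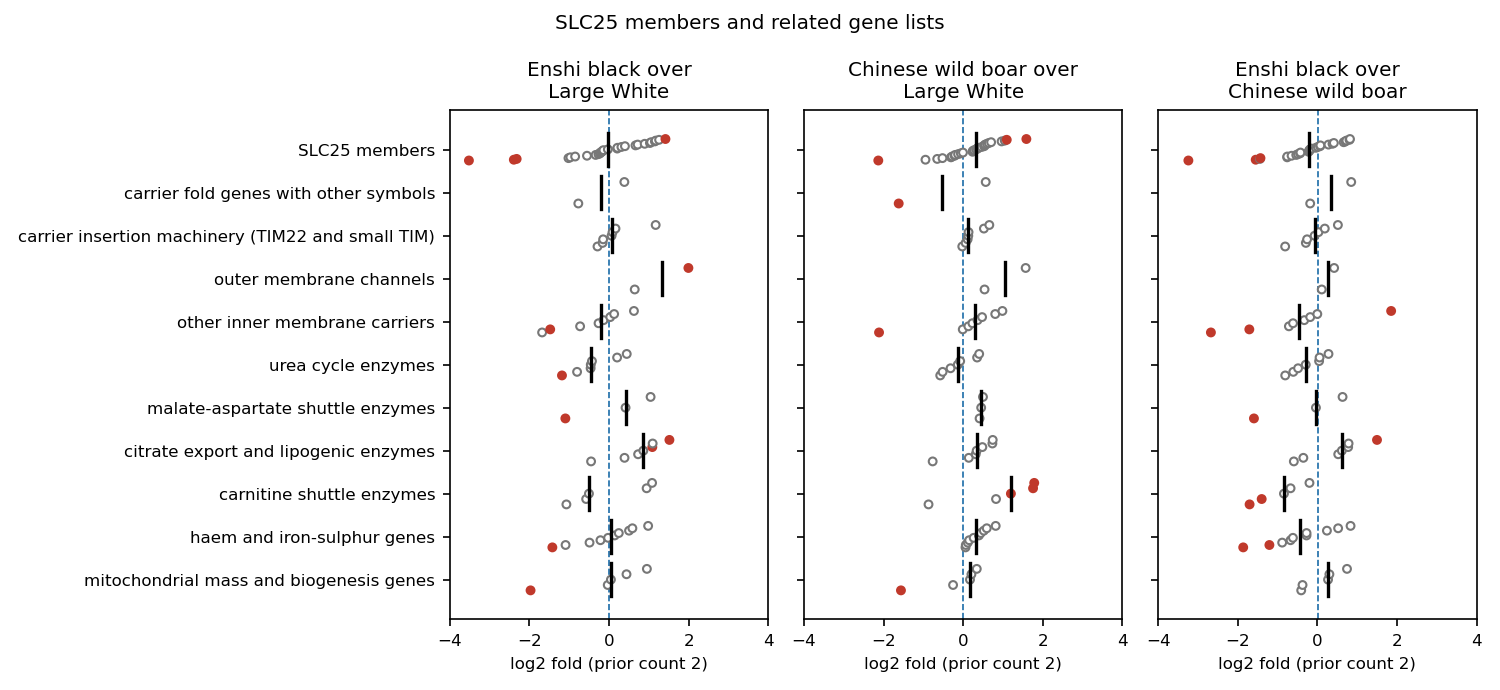
Log2 fold (prior count 2) of 28 expressed SLC25 members and of each expressed gene of 10 related lists, in 3 panels for Enshi black over Large White, Chinese wild boar over Large White and Enshi black over Chinese wild boar. Circles are genes, filled red where the size rule was passed, black bars list medians (for SLC25, over all 29), and the dashed line the median of all expressed genes. In the middle panel 3 of 5 carnitine shuttle enzymes are red, to the right of 0, beside a list median of 1.20.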

How the data were processed

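Liver total RNA gave Illumina paired-end libraries, per the labels' protocols. As deposited, each file holds whole-number counts per Ensembl gene ID with no normalization. The build was Sscrofa10.2, and HTSeq 0.6.1, TopHat2 2.1.0 and edgeR 3.16.3 were used, per the submitters' processing notes. For annotation release, strand setting and multiply aligned reads, the sources used here say nothing. The 5 rows that name no gene stayed out of all totals: no-feature reads were 18.9% to 22.0% and ambiguous reads 1.89% to 2.49% of reads.

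Symbols matched 11804 of 25322 IDs by gene ID. A further 10 IDs with an SLC25 symbol are not among the counted IDs and were not analysed here. TMM factors (edgeR 4.0.16, R 4.3.3) were 1.045 for Enshi black, 0.979 for Chinese wild boar and 0.978 for Large White, over 13228 genes with at least 1 plain CPM in at least 1 library. At this depth 1 count was worth 0.0463 to 0.0512 CPM and the floor of 3 counts 0.139 to 0.154 CPM. Folds of scaled counts carry 95% Clopper-Pearson intervals (Python 3.11.15, scipy 1.17.1), fitted over all genes. Intervals cover counting error only, because each breed has 1 library. No molecular identifiers are described, and the intervals make no allowance for duplicate reads. Log2 folds for medians use a prior count of 2. Neighbours and overlaps come from the RefSeq table of Sscrofa11.1, names only.

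On simulated counts without animal variation, the rule found 85 of 100 genes changed 4-fold in the comparison of Enshi black with Large White, 94 of Chinese wild boar with Large White, and 95 of Enshi black with Chinese wild boar. It called 0 of 13028 unchanged genes each time. That was nearly certain in advance for counts drawn at a fold of 1, and it gives no rate of false calls between animals. 1 member enters the counts, sums and medians but is otherwise not reported here. Members past the rule, the 10 with the most reads and the leading member of each substrate group are given in all libraries. Substrate groups came from general knowledge. Up to 3 genes per related list and comparison are named, those past the rule farthest from 1 or else those with the most reads; further genes of these lists were named for their role. SLC25A47 was moved to the group of less settled role, and the carrier pairs were picked, after values were seen. The members, lists and rules were chosen with earlier results of these data known. Alternatives were DESeq2 1.42.0 size factors, plain CPM, other filters, near bounds, intervals and prior counts, and an assumed variation between animals.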

Additional observations from a re-analysis of the deposited data

How the results depend on the processing

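With 1 library per breed there was no replicate to leave out. No paired analysis was possible because each breed has 1 library and the labels give no replicate numbers. The comparisons below are Enshi black against Large White, Chinese wild boar against Large White, and Enshi black against Chinese wild boar, in this order, with 5, 4 and 3 members past the size rule and 1731, 886 and 1472 of all genes. DESeq2 size factors kept the 12 member calls and no expression filter did too. Plain CPM kept them and added 3 in the first comparison, giving 8, with 772 genes higher and 978 lower against 621 and 1110 under TMM. It moved the median log2 fold of all genes to 0.10 for Enshi black against either other library. A filter of 10 CPM left 20 members, of which 3, 3 and 3 passed, with SLC25A23 and SLC25A35 removed by the filter. It left 8136 of all genes, of which 990, 546 and 820 passed. A near bound of 1.5 gave 14, 8 and 7 members and 3503, 2120 and 2976 genes. An interval at a stricter confidence level gave 5, 3 and 3 members and 1227, 585 and 1043 genes, with SLC25A1 lost in the second comparison. An assumed coefficient of variation of 0.4 left 1, 0 and 1 of 29 members, SLC25A45 each time, and 525, 169 and 460 of 13228 genes. The median log2 fold of members in the first comparison, -0.03, became 0.12 with no expression filter and -0.15 with 10 CPM, and in the third, -0.20, became -0.43 with 10 CPM. No member past the rule changed direction under these alternatives. Only the scaling alternatives alter a fold, and by little, so a change of direction was hardly possible. Depth limits SLC25A14, SLC25A31 and SLC25A53, which have too few reads to compare.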

Other observations

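Each of the 8 members past the size rule was set beside the nearest expressed protein-coding gene with a matched symbol on either side in the RefSeq order, 16 neighbours in all. Over the 12 member calls, 1 of 24 neighbour values passed in the same direction as its member and 0 in the opposite direction. Among all expressed genes, the share past the rule in a given direction ran from 2.96% to 8.39% across the comparisons. The neighbour that passed with its member was DENND1C, beside SLC25A23, with 3.10 CPM in Enshi black, 8.59 in Chinese wild boar and 10.6 in Large White. It was 3.43-fold lower in Enshi black than in Large White (2.59 to 4.59). DENND1C also passed as lower against Chinese wild boar (2.77-fold, 2.07 to 3.73), where SLC25A23 did not pass (2.82-fold lower, 1.90 to 4.26). ARHGEF15, a neighbour of SLC25A35, also overlaps it in RefSeq. FRMD8, next to SLC25A45, had 25.9, 35.3 and 54.0 CPM and was 2.09-fold lower in Enshi black than in Large White (1.88 to 2.32), which did not pass, while DPF2 on the other side had 58.8, 56.9 and 57.4 CPM.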
